A study of Caenorhabditis elegans with 20 samples.

Results

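Total RNA of wild-type Caenorhabditis elegans was set against total RNA of worms carrying a GFP transgene, using 8 of the 20 samples of the series, chosen by their labels alone. The wild type was the laboratory strain N2 (n = 2). The transgenic samples came from a single-copy integrated line of AIN-2::GFP, line A (n = 3), and from an injection line in which the AIN-2 promoter drives GFP alone (n = 3), so each transgenic strain is represented by 1 line. All 8 samples were of mixed-stage worms, and none was an immunoprecipitate. The series text calls the samples biological replicates, without saying how the cultures were grown or harvested. RNA was amplified, labelled with Cy3 or Cy5 and hybridised to spotted DNA microarrays. AIN-2 is a GW182-family partner of the microRNA Argonautes, and the transgenic lysates served the study as reference profiles for its immunoprecipitates. Here they are compared with N2 as measured, strain and sample handling together.

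A mixed-stage culture holds embryos, larvae and adults, and its RNA is the sum of them. Hermaphrodite worms make sperm in the last larval stage and oocytes afterwards. Genes for sperm proteins are therefore transcribed in a short window, whereas yolk is made by the adult intestine. Collagens of the cuticle are transcribed in waves around each moult, and many of the family's genes are used at some stages and not at others. In bulk RNA, fewer cells or worms of a kind and less RNA per cell cannot be told apart.

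The samples were bright enough to measure most gene families. Mean spot intensity lay between 241 and 800 scanner units. Of gene features, 57.3% and 62.1% in N2 and 45.6% to 54.5% in transgenic samples were above a background limit set from chemoreceptor genes. This limit was set per sample, at 0.0755 and 0.0489 sample means in N2 and 0.0548 to 0.1233 in transgenic samples. A gene above it in N2 alone was thus read against limits that differed between samples. Precision is limited by how few arrays there were. Of 38 tissue and stage markers looked up on the array, 30 were above that limit in all 8 samples and 4 in none (col-10, spe-11, pkd-2 and cwp-1). The N2 samples correlated with each other at a Spearman rho of 0.922 across features, and with transgenic samples at 0.787 to 0.868. Transgenic samples with the same replicate number, from different strains and in opposite dyes, correlated at 0.962 to 0.983, above the 0.887 to 0.924 of other transgenic pairs. The numbers therefore pair the transgenic samples. No such pairing was seen between N2 and transgenic samples, but 2 N2 samples make this a weak check. Which samples were handled together is not given, so a set of samples handled together and the strain cannot be told apart. Of 12222 features tested with limma, 1591 (13.0%) were higher and 1128 (9.23%) lower in transgenic than in N2 worms at a Benjamini-Hochberg adjusted p under 0.05, around a median of 0.16 on the log2 scale. Scaling each sample by its mean alone turned this split to 746 higher and 1616 lower, around a median of -0.17. With same-numbered transgenic samples as a random block and both N2 samples as another (called the pair block here), 344 (2.81%) were higher and 322 (2.63%) lower. Leaving out either N2 sample, so that 1 remained, gave far fewer calls, and some of these were not called with all 8 samples. Leaving out a transgenic sample gave 1277 calls without AIN-2::GFP replicate 1, 1619 without AIN-2::GFP replicate 3 and 1601 without promoter GFP replicate 1. All 6 transgenic samples lay above both N2 samples for 25.1% of features and below both for 19.1%.

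List medians lay on both sides of N2. Those of the major sperm proteins and small sperm families were above 2, those of germline and oocyte genes were at 0.65 and 0.55, and those of col collagens, abu and pqn genes, muscle genes and neuropeptides were below 0, as was that of the yolk genes at -0.22. Levels below are quantile-normalized intensities in units of a sample's mean spot intensity, and differences are transgenic minus N2 on the log2 scale with their standard error.

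**Figure D1:**
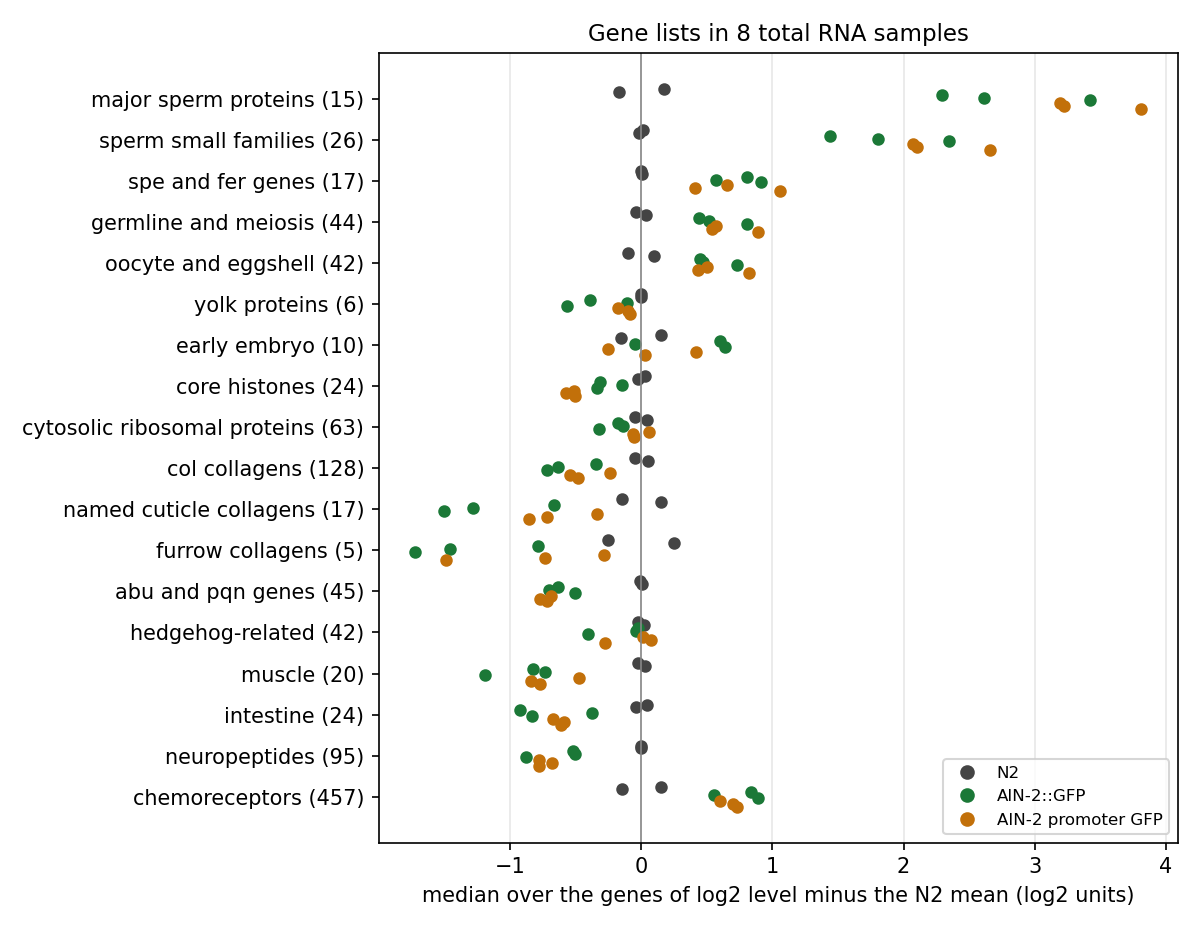
Each row is a gene list with its number of tested genes, and each point is 1 sample: the median over the list of the gene's log2 level minus its N2 mean, in log2 units. The major sperm proteins reach medians from 2.29 to 3.81 in the 6 transgenic samples, the col collagens lie between -0.72 and -0.24, and the yolk genes between -0.57 and -0.09.

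The major sperm proteins (MSPs), which build the cytoskeleton of the crawling sperm cell and also signal to oocytes, were much more abundant in both transgenic strains. Of the 15 msp genes on the array, 13 were higher and 0 lower (background 13.0% and 9.23%), and the same count was higher with the pair block. The list's median difference was 3.14, against 0.16 over all features. For 14 of the 15, every transgenic sample exceeded both N2 samples, as it did for 25.1% of all features. The level of msp-63 was 0.51 and 0.482 in N2, 2.86, 3.20 and 4.07 in AIN-2::GFP worms, and 5.80, 4.62 and 5.88 in promoter GFP worms. Every transgenic sample was thus far above both N2 samples, and the strains did not overlap each other. Its difference was 3.10 ± 0.21 (limma, adjusted p = 0.00363), and it passed the threshold whichever single sample was left out. The level of msp-59 was 1.18 and 0.926 in N2, 5.46, 7.26 and 15.2 in AIN-2::GFP, and 11.1, 10.5 and 19.8 in promoter GFP worms, a 10.1-fold difference (limma, adjusted p = 0.0114). In both strains replicate 3 was the highest, as it was for the list's median. The gene msp-36 was below the background limit in both N2 samples and above it in all 6 transgenic samples, at least 3.17-fold higher (limma, adjusted p = 0.00693). The exceptions, named after their values were seen, were msp-45, at 1.00 ± 0.47 (limma, adjusted p = 0.167), and msp-81, at 0.93 ± 0.42 (limma, adjusted p = 0.158). The genes of this family are nearly identical in sequence, so a spot for 1 gene can bind RNA of others and the 13 are not separate measurements. Without N2 replicate 1 the number higher was 2, and without N2 replicate 2 it was 1, although the list's median stayed between 2.93 and 3.29 whichever sample was left out. It was 2.80 within the Cy3 samples and 3.31 within the Cy5 samples.

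Smaller sperm families behaved alike. The ssp, sss, ssq, nspd and msd families encode small sperm-enriched proteins. Of their 26 tested genes (30 on the array), 16 were higher and 1 lower (background 13.0% and 9.23%), with a median of 2.11. With the pair block 11 were higher (background 2.81%). All 16 had higher mean levels in promoter GFP than in AIN-2::GFP worms, a difference between strains that none of them passed in limma. The gene nspd-5 was at 0.0401 and 0.0424 in N2, 0.303, 0.312 and 0.762 in AIN-2::GFP and 0.513, 0.494 and 0.864 in promoter GFP worms. In transgenic worms it rose at least 9.91-fold (limma, adjusted p = 0.00899), with N2 below the background limit in both samples. The gene msd-4, an MSP-domain gene, rose at least 6.28-fold (limma, adjusted p = 0.0078), and nspd-10 at least 5.27-fold (limma, adjusted p = 0.0118, and 0.0619 with the pair block). The gene ssp-11 went from 0.545 and 0.338 in N2 to between 1.40 and 3.02 in transgenic worms, a 4.64-fold difference (limma, adjusted p = 0.0114). The member that fell, ssp-37, named after its values were seen, decreased by 1.12 ± 0.27 (limma, adjusted p = 0.0354, and 0.0776 with the pair block). Leaving out N2 replicate 1 or 2 left 3 and 0 members higher.

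**Figure D2:**
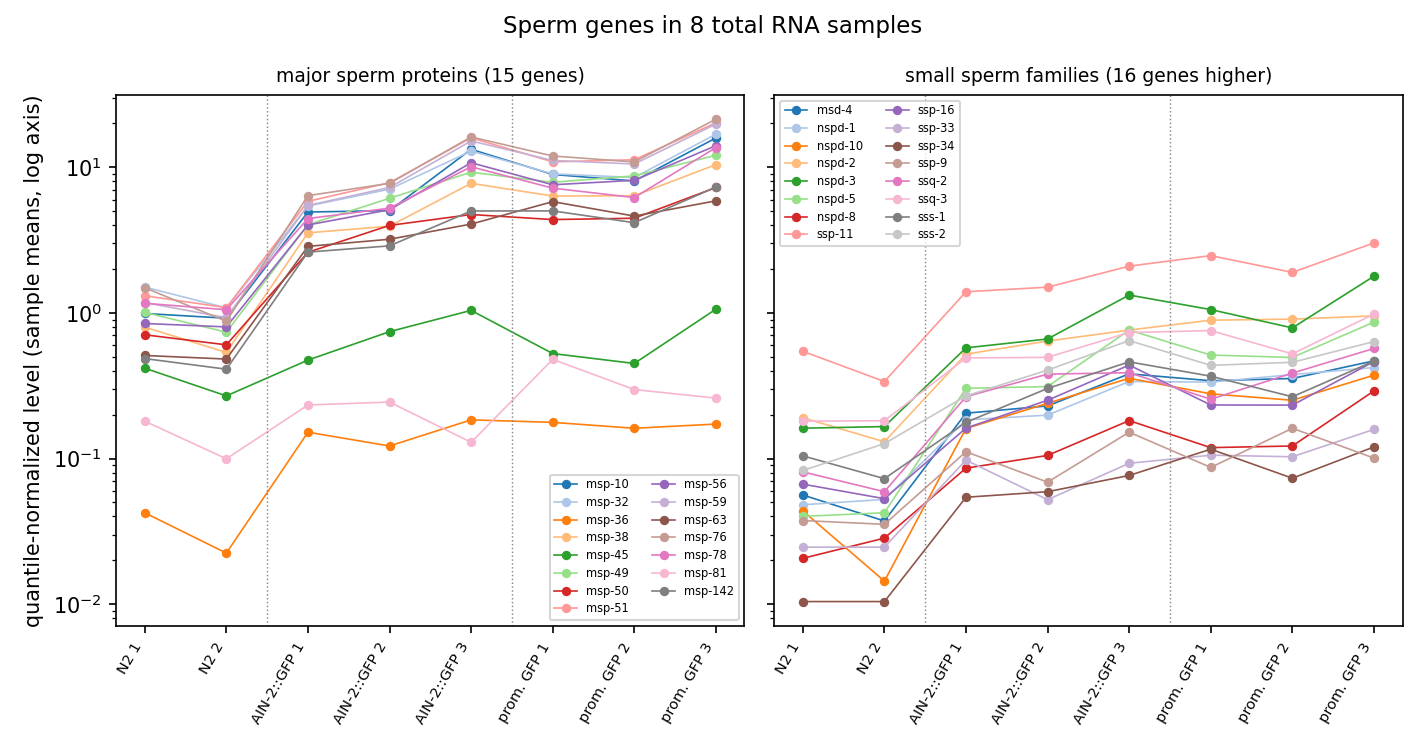
Quantile-normalized level in each of the 8 samples (log axis, in units of the sample's mean spot intensity) for the 15 msp genes and for the 16 genes of small sperm families that were higher; a line joins the values of 1 gene. Apart from msp-81, whose level in 1 transgenic sample falls below an N2 sample, the msp lines lie higher in every transgenic sample than in both N2 samples.

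Genes that act in sperm function, known from mutants that make no working sperm, did not stand apart from the background of calls. Of 17 tested genes (30 spe and fer genes on the array), 2 were higher (11.8%, background 13.0%), 0 lower and 15 did not pass. With the pair block 0 were higher. Their median was 0.86, against 0.16 over all features, and 15 of the 17 differences were above 0. Only 6 of the 17 were above the background limit in all 8 samples, and 3 were above it in none, which limits what could be called. The gene spe-18 rose at least 2.52-fold (limma, adjusted p = 0.0291, and 0.0876 with the pair block). For spe-9, a sperm surface protein needed for fertilisation and named after its values were seen, 0 of 2 N2 and 4 of 6 transgenic samples were above the background limit, and the difference did not pass (limma, adjusted p = 0.274). Sperm phosphatase genes gave gsp-3 at 0.0224 and 0.0433 in N2, 0.0875, 0.153 and 0.237 in AIN-2::GFP and 0.249, 0.122 and 0.37 in promoter GFP worms. All 6 transgenic values were above the N2 values, with a difference of 2.54 ± 0.47 (limma, adjusted p = 0.0198, and 0.055 with the pair block). Its relative gsp-4 rose by 0.76 ± 0.18 (limma, adjusted p = 0.0365, and 0.134 with the pair block). The sex-determination genes of hermaphrodite sperm production, fog-2 and fog-3, were at 0.01 ± 0.24 and 0.99 ± 0.62 (limma, adjusted p = 0.978 and 0.285).

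Males also make sperm, so genes of male neurons and the male tail were read beside the sperm genes. Of 8 tested (18 on the array), 3 were higher (37.5%, background 13.0%), 0 lower and 5 did not pass. With the pair block 0 were higher. One of the 3, dmd-4, was above the background limit in all 8 samples and higher in every transgenic sample than in N2. Its difference was 0.78 ± 0.16 (limma, adjusted p = 0.0239, and 0.0776 with the pair block). The male sensory genes lov-1 and cwp-1 were the others, but cwp-1 was above the background limit in none of the 8 samples and lov-1 in 1. The gene pkd-2, which works with lov-1, was above it in none. Besides dmd-4, the genes mab-5, dmd-3 and cwp-2 were above the limit in all 8 samples. They did not pass, at -0.91 ± 0.39, 0.40 ± 0.18 and 0.70 ± 0.33 (limma, adjusted p = 0.142, 0.149 and 0.168). For mab-5 all 6 transgenic samples lay below both N2 samples. The share of males in the cultures is not given in the labels, and its part in the sperm result was not tested.

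Genes of the germline before gametes form included more rises than falls. Of 44 genes for germ cell proliferation, meiosis and P granules, 15 were higher and 1 lower (background 13.0% and 9.23%), with a median of 0.65. Only 2 were higher with the pair block (background 2.81%) and 4 under scaling by the mean. Without N2 replicate 1 or without N2 replicate 2, 0 were higher. The 2 that passed with the pair block were syp-6, a protein of the synaptonemal complex that holds paired meiotic chromosomes together, and glh-3, a germline helicase of P granules. The level of syp-6 was 0.0865 and 0.0967 in N2, 0.274, 0.264 and 0.321 in AIN-2::GFP and 0.303, 0.303 and 0.35 in promoter GFP worms, with a difference of 1.72 ± 0.18 (limma, adjusted p = 0.0068). The groups did not overlap and the transgenic samples lay close together. For glh-3 the difference was 1.67 ± 0.19 (limma, adjusted p = 0.00792). The level of gld-1, a translational repressor of the meiotic germline, was 2.05 and 2.78 in N2, 5.62, 6.16 and 5.08 in AIN-2::GFP and 4.32, 5.39 and 5.71 in promoter GFP worms, a 2.24-fold difference (limma, adjusted p = 0.0183, and 0.0794 with the pair block). The meiotic genes syp-4, htp-3 and him-5 rose by 1.07, 1.07 and 0.96 (limma, adjusted p = 0.0154, 0.0239 and 0.0241, and 0.0536, 0.095 and 0.071 with the pair block), and syp-4 has another feature of opposite sign. Other mainstays of the germline differed little: glp-1, the Notch receptor of germline stem cells, was at -0.26 ± 0.22 and the P granule gene pgl-1 at -0.12 ± 0.21 (limma, adjusted p = 0.432 and 0.687). The list's single fall was nos-2, a maternal and germ cell gene, at -1.57 ± 0.37 (limma, adjusted p = 0.0356, and 0.155 with the pair block). The genes glp-1, pgl-1 and nos-2 were named after their values were seen.

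Some oocyte and eggshell genes rose and most did not pass. Of 42 tested, 13 were higher, 3 lower and 26 did not pass (background 13.0% higher and 9.23% lower), with a median of 0.55. With the pair block 2 were higher and 1 lower (background 2.81% and 2.63%), and under cyclic loess normalization 7 were higher. Leaving out either N2 sample left 0 called. The 2 higher with the pair block were egg-4, a pseudophosphatase of the egg surface, and puf-11, an RNA-binding protein of the Pumilio family, which has another feature of opposite sign. The level of egg-4 was 0.62 and 0.541 in N2, 1.19, 1.35 and 1.69 in AIN-2::GFP and 1.51, 1.57 and 2.06 in promoter GFP worms, a difference of 1.41 ± 0.23 (limma, adjusted p = 0.0147). The yolk receptor of oocytes, rme-2, named after its values were seen, was at 3.42 and 5.09 in N2, 7.48, 7.55 and 8.54 in AIN-2::GFP and 8.14, 6.95 and 9.95 in promoter GFP worms. It rose 1.93-fold (limma, adjusted p = 0.0303, and 0.098 with the pair block). In the other direction, the gene lower with the pair block was cpg-19, the list's largest fall. It was above the background limit in no transgenic sample and at least 1.58-fold lower (limma, adjusted p = 0.01265, and 0.0392 with the pair block). The chondroitin proteoglycan gene cpg-3 went from 3.03 and 4.50 in N2 to between 1.00 and 1.96 in transgenic worms, 2.35-fold lower (limma, adjusted p = 0.0132, and 0.0515 with the pair block). Its eggshell relative cpg-1, also named afterwards, was at -0.07 ± 0.19 (limma, adjusted p = 0.801).

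No yolk protein gene was called, on spots where a change is hard to read. The vitellogenins are secreted by the intestine of adult hermaphrodites and taken up by oocytes. In limma 0 of the 6 were called (background 13.0% higher and 9.23% lower), 1 had an unadjusted p under 0.05, and the median was -0.22. Yolk genes were among the brightest spots: vit-3, vit-4 and vit-5 ranked between 1 and 23 of all features in every sample. At such ranks quantile normalization allows few distinct values, so the absence of calls does not show that these genes kept the N2 level. The level of vit-2 was 51.5 and 55.9 in N2, 29.5, 50.7 and 29.5 in AIN-2::GFP and 47.3, 46.5 and 42.8 in promoter GFP worms, so all 6 transgenic values were below both N2 values. Its difference of -0.42 ± 0.23 did not pass (limma, adjusted p = 0.223). The level of vit-6 was 62.6 and 72.4 in N2, 50.7, 56.7 and 50.7 in AIN-2::GFP and 46.1, 28.4 and 50.7 in promoter GFP worms, again without overlap, at -0.54 ± 0.20 (limma, adjusted p = 0.101). The remaining genes lay between -0.24 for vit-5 and 0.00 for vit-3. The spots of vit-4 disagreed: beside the bright feature, which was at -0.19 ± 0.23, another gave 8.58 and 8.02 in N2 against 0.108 to 0.747 in transgenic worms, a difference of -5.03 ± 0.61 (limma, adjusted p = 0.00879, and 0.0309 with the pair block). The vitellogenin genes are close in sequence, and what that other feature binds was not tested. Under cyclic loess normalization, under quantile normalization over 20 samples, under limma-trend and with a fixed block for replicate number, 1 yolk gene was called.

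Embryo and growth genes had few calls, and their number moved with the scaling. None of 10 tested early embryonic factors was called, and their median of 0.35 turned to -0.11 under scaling by the mean. Of 24 core histone genes, 2 were lower (8.3%, background 9.23%) and 1 higher (4.2%, background 13.0%), with a median of -0.37. The histone median stayed below 0 under the 3 other scalings (-0.58 by the mean, -0.49 by cyclic loess and -0.38 by quantiles over 20 samples), with 5, 6 and 6 lower. Over all features, 1616, 1327 and 1258 were lower under these scalings, against the 1128 given above. The histone his-32 decreased by 0.74 ± 0.17 and his-61 by 0.60 ± 0.16, while his-45 rose by 0.85 ± 0.19 (limma, adjusted p = 0.0348, 0.0465 and 0.0322), and none of the 3 passed with the pair block (adjusted p = 0.124, 0.129 and 0.117). Histone genes of a class are near copies of each other, so these too are uncertain by gene. Of 63 cytosolic ribosomal protein genes, 5 were lower and 1 higher (background 9.23% and 13.0%), with a median of -0.15. That median was near 0 under scaling by the mean, with 4 lower, -0.35 under cyclic loess, with 10 lower, and -0.19 under quantiles over 20 samples, with 8 lower.

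The cuticle collagens were lower in transgenic worms, but not as a whole family. Of 128 tested col genes (138 on the array), 43 were lower and 6 higher (background 9.23% and 13.0%), and 79 did not pass, with a median of -0.47. With the pair block 20 were lower and 1 higher, and 8 were lower without N2 replicate 1 and 5 without N2 replicate 2. All 6 transgenic samples lay below both N2 samples for 51 genes and above for 12 (19.1% and 25.1% of all features). The differences of the 43 that fell lay between -4.89 and -0.95, with a median of -2.52, and 28 of the family were lower by more than 2 log2 units, whereas 67 were within 1 log2 unit of N2. Among the 87 col genes above the background limit in all 8 samples, 26 were lower and 4 higher. Collagen genes share their repeats, so a spot may bind RNA of relatives, which was not tested.

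The brightest collagens that fell did so strongly and together. The level of col-159 was 35.1 and 41.1 in N2, 4.72, 3.81 and 2.76 in AIN-2::GFP and 2.20, 1.26 and 2.43 in promoter GFP worms. It decreased by 3.85 ± 0.29 (limma, adjusted p = 0.00426) and passed whichever single sample was left out. The strains did not overlap, with promoter GFP worms lower. The level of col-92 was 21.9 and 20.4 in N2, 2.84, 2.64 and 1.34 in AIN-2::GFP and 1.60, 1.07 and 1.53 in promoter GFP worms, 12.2-fold lower (limma, adjusted p = 0.00546). A similar fall was seen for col-93 (12-fold), col-180 (13.5-fold) and col-117 (11.2-fold), each with all 6 transgenic samples below 5 and both N2 samples above 14 in level, though col-117 has another feature of opposite sign. The greatest fall in the family was that of col-85, from 0.878 and 0.86 in N2 to 0.0859, 0.103 and 0.0562 in AIN-2::GFP and 0.0104, 0.0119 and 0.0104 in promoter GFP worms. It decreased by 4.89 ± 0.26 (limma, adjusted p = 0.00259), and the promoter GFP values lie at or next to the floor of 0.0104. Of the 43 that fell, 35 were lower in promoter GFP than in AIN-2::GFP worms in the fit, and 0 of these differences between strains passed in limma without the pairing. With same-numbered samples as a block and the N2 samples apart, 5 col genes were called higher in AIN-2::GFP than in promoter GFP worms and 1 lower.

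**Figure D3:**
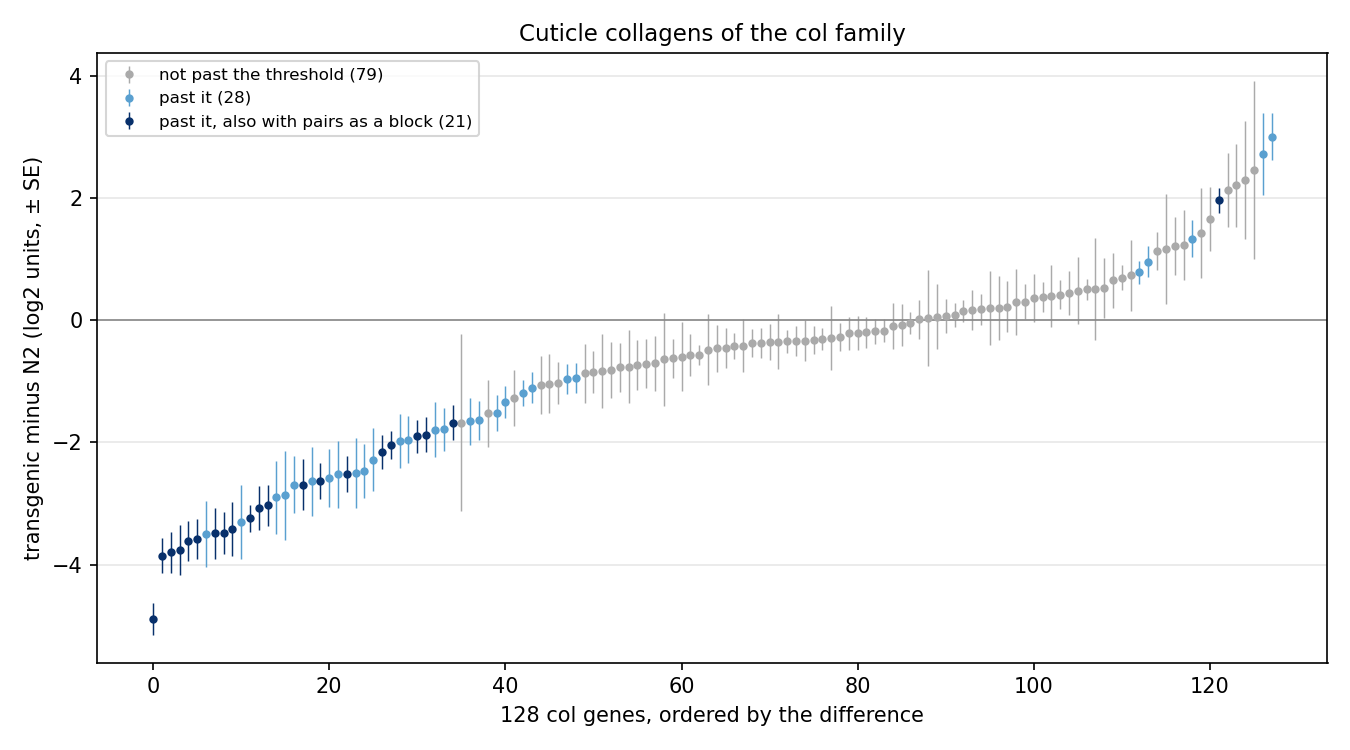
Difference between transgenic and N2 worms (log2 units, bars are standard errors) for 128 col genes in rank order, with colours for those that passed the adjusted p threshold in limma and those that also passed with the pair block. A tail of 14 genes lies below -3, the middle of the family is near 0, and few genes rise.

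Collagens that rose were dim or moderate. The clearest was col-142, at 0.282 and 0.299 in N2, 0.74, 0.928 and 1.08 in AIN-2::GFP and 1.45, 1.24 and 1.55 in promoter GFP worms, which rose by 1.96 ± 0.20 (limma, adjusted p = 0.00693) and also passed with the pair block. The largest rise, that of col-175, was 3.00 ± 0.38 (limma, adjusted p = 0.00956, and 0.0515 with the pair block). Both genes were named after their values were seen. The adult cuticle collagen col-19 was at -0.62 ± 0.32 (limma, adjusted p = 0.198), and bli-1 and bli-2, collagens of the adult cuticle's struts, did not pass either (limma, adjusted p = 0.129 and 0.124). The bli-1 spot was above the background limit in 0 of 2 N2 and 1 of 6 transgenic samples and the bli-2 spot in 1 and 2, so a difference in them was not detectable at this signal.

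Few collagens named for body shape were called, although most of their differences were below 0. Of 17 tested, 2 were lower (11.8%, background 9.23%) and 0 higher (background 13.0%), with a median of -0.94. With the pair block 0 were lower. Of the 17 differences, 13 were below 0. For 7 of the 17 all transgenic samples lay below both N2 samples, a larger share than the 19.1% of all features. The 2 were sqt-2, at 2.20 and 2.39 in N2 and between 0.808 and 1.17 in transgenic worms (2.45-fold lower; limma, adjusted p = 0.0176, and 0.0541 with the pair block), and dpy-3. The latter, a collagen of the furrows between the rings of the cuticle, was at least 4.02-fold lower (limma, adjusted p = 0.0162, and 0.0595 with the pair block) and was above the background limit in no transgenic sample. It was the only furrow collagen of 5 that passed, and dpy-7 was at -0.68 ± 0.30 (limma, adjusted p = 0.147). The level of rol-6 was 8.53 and 9.72 in N2, 4.77, 3.12 and 1.80 in AIN-2::GFP and 4.53, 3.90 and 2.51 in promoter GFP worms, and its difference of -1.49 ± 0.43 just missed the threshold (limma, adjusted p = 0.0576). In each strain replicate 3 was the lowest for rol-6 and replicate 1 the highest, and the same order held in the AIN-2::GFP and promoter GFP medians of this list.

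Genes that process and shed the cuticle had calls in both directions, close in number to the background of 9.23% lower and 13.0% higher. Of 20 tested genes of collagen processing and moulting, 3 were lower and 1 higher, with a median of -0.08. The moulting gene mlt-8 was at 0.357 and 0.455 in N2 and between 0.044 and 0.0808 in transgenic worms, 7.32-fold lower (limma, adjusted p = 0.00673). Only 1 of its 6 transgenic values was above the background limit, so this fold draws on values below background. The cuticle matrix gene noah-2 was 1.64-fold lower and the hedgehog-like gene qua-1 1.70-fold higher (limma, adjusted p = 0.0331 and 0.0495, and 0.107 and 0.159 with the pair block). Among 22 cuticlins and their relatives, 2 were higher and 1 lower, with a median of 0.10 that was -0.40 under scaling by the mean. Hedgehog-related genes, many of them made by cuticle-forming cells, gave 6 lower and 3 higher of 42. Here grd-10 was at 1.86 and 1.55 in N2 and between 0.391 and 0.612 in transgenic worms, 3.38-fold lower (limma, adjusted p = 0.0108), and wrt-9 was 2.40-fold higher (limma, adjusted p = 0.0148, and 0.0718 with the pair block).

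Many abu and pqn genes, for glutamine- and asparagine-rich proteins of which several abu members line the pharyngeal cuticle, were lower. Of 45 tested (56 on the array), 18 were lower and 2 higher (background 9.23% and 13.0%), with a median of -0.78. With the pair block 4 were lower (background 2.63%). Without N2 replicate 1 the number lower was 2, and without N2 replicate 2 it was 0. The level of abu-7 was 3.12 and 3.64 in N2, 1.00, 0.62 and 0.715 in AIN-2::GFP and 0.604, 0.479 and 0.488 in promoter GFP worms. It fell 5.35-fold (limma, adjusted p = 0.00673); both N2 samples were well above every transgenic sample. The genes abu-6, abu-15 and abu-5 fell 4.36-, 4.22- and 2.61-fold (limma, adjusted p = 0.00781, 0.00689 and 0.0118). These 4 were also those that passed with the pair block. Several abu genes are close paralogs and are uncertain gene by gene.

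Several muscle genes were lower, among them both myosins of the pharynx. Of 20 tested, 7 were lower and 3 higher (background 9.23% and 13.0%), with a median of -0.83. With the pair block 3 were lower (background 2.63%). The number lower was 1 without N2 replicate 1 and 1 without N2 replicate 2. The pharyngeal myosin myo-2 was at 6.07 and 7.12 in N2, 0.879, 0.722 and 0.696 in AIN-2::GFP and 0.765, 0.646 and 0.611 in promoter GFP worms. It decreased by 3.20 ± 0.20 (limma, adjusted p = 0.00342) and passed whichever single sample was left out. The other pharyngeal myosin, myo-1, was at 5.05 and 3.45 in N2, 0.651, 0.572 and 0.394 in AIN-2::GFP and 0.794, 0.687 and 0.476 in promoter GFP worms, a decrease of 2.85 ± 0.32 (limma, adjusted p = 0.0075). Both fell by about the same amount in each strain, and the groups were far apart. The main body wall myosin, unc-54, was at 13.9 and 15 in N2, 4.80, 5.54 and 3.94 in AIN-2::GFP and 5.83, 5.24 and 5.09 in promoter GFP worms, a smaller decrease of 1.52 ± 0.18 (limma, adjusted p = 0.00816). The body wall myosin myo-3, named after its values were seen, decreased by 1.53 ± 0.32 (limma, adjusted p = 0.0265, and 0.0633 with the pair block). Whether the pharyngeal myosins fell more than those of the body wall was not tested. The 3 called higher were ttn-1, mlc-1 and unc-45, of which unc-45 was above the background limit in 0 of the 8 samples and mlc-1 in 1, and 0 of the 3 passed with the pair block. The troponin gene tnt-4 was at -2.02 ± 0.84 (limma, adjusted p = 0.134), with the lowest values in replicate 3 of both strains. These 4 genes were named after their values were seen.

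**Figure D4:**
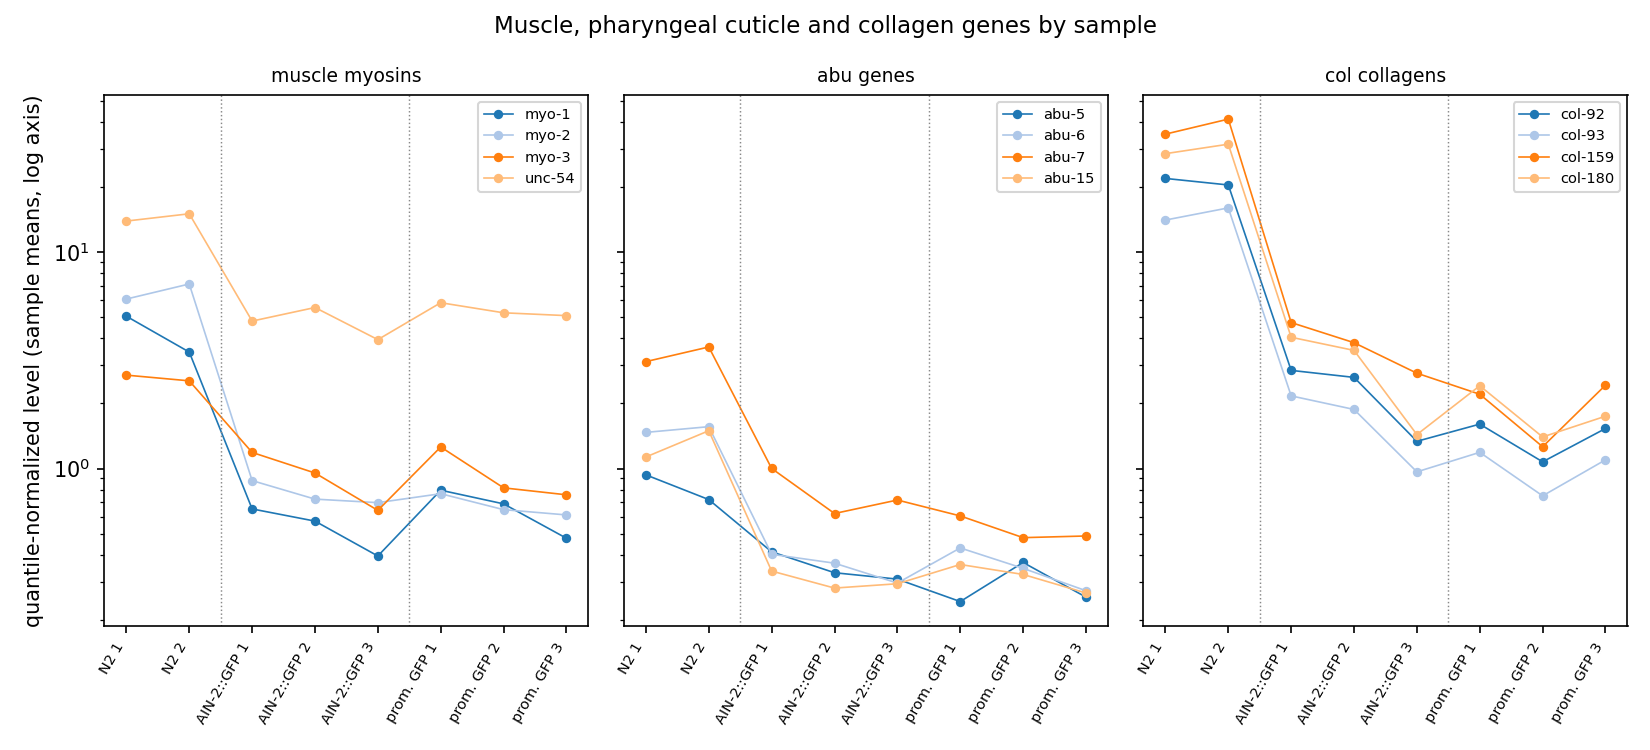
Quantile-normalized level by sample (log axis, in units of the sample's mean spot intensity) for 4 muscle myosins, 4 abu genes and 4 col collagens; a line joins the values of 1 gene. Every gene shown is lower in all 6 transgenic samples than in both N2 samples.

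Intestinal genes other than yolk were lower in part. Of 24 tested, 7 were lower, 1 higher and 16 did not pass (background 9.23% lower and 13.0% higher), with a median of -0.72. With the pair block 1 was lower (background 2.63%). Leaving out N2 replicate 1 or 2 left 0 lower. The gene lower with the pair block, the lysozyme lys-4, was at 5.24 and 3.81 in N2, 0.331, 0.71 and 0.369 in AIN-2::GFP and 0.845, 0.818 and 0.753 in promoter GFP worms, 7.49-fold lower (limma, adjusted p = 0.0075). Another lysozyme, lys-5, was 5.30-fold lower, and the nuclease nuc-1, which degrades DNA of dead cells and of food, was 3.37-fold lower (limma, adjusted p = 0.0158 and 0.0113, and 0.0523 and 0.0548 with the pair block). Markers of the intestinal cell as such did not move together. The gut factor elt-2 was above the background limit in 2 of 2 N2 samples and 0 of 6 transgenic ones (limma, adjusted p = 0.0211, and 0.0633 with the pair block), but its N2 values of 0.0642 and 0.0925 lie too close to the limit to give a fold. In contrast, the esterase ges-1 was at 0.34 ± 0.19 and the proton pump subunit vha-6 at -0.25 ± 0.17 (limma, adjusted p = 0.234 and 0.331). These 3 markers were named after their values were seen.

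Many neuropeptide genes of the flp, nlp and ins families were lower. Of 95 tested (107 on the array), 26 were lower and 4 higher (background 9.23% and 13.0%), with a median of -0.71. With the pair block 13 were lower (background 2.63%). Without N2 replicate 1 the number lower was 2, and without N2 replicate 2 it was 1. The FMRFamide-like peptide gene flp-4 was at 0.705 and 0.771 in N2, 0.141, 0.161 and 0.116 in AIN-2::GFP and 0.0967, 0.103 and 0.102 in promoter GFP worms. It decreased by 2.64 ± 0.18 (limma, adjusted p = 0.00363), with the strains not overlapping, and passed whichever single sample was left out. Another such gene, flp-7, was above background in N2 alone and at least 3.26-fold lower (limma, adjusted p = 0.00595), and nlp-3 was 3.38-fold lower (limma, adjusted p = 0.00904). Of 11 pan-neuronal genes, 3 were lower (27.3%, background 9.23%), 7 did not pass and 1, unc-119, was higher. Their median was -0.09, nearer to N2 than that of the neuropeptides, and 0 were lower with the pair block. The SNAP-25 gene ric-4, part of the machinery that fuses synaptic vesicles, was 10.8-fold lower (limma, adjusted p = 0.00991, and 0.0565 with the pair block). The carboxypeptidase egl-21, which trims neuropeptides, was at 8.64 and 7.95 in N2 and between 3.43 and 4.67 in transgenic worms, 2.04-fold lower (limma, adjusted p = 0.0215, and 0.0644 with the pair block). Synaptobrevin, snb-1, named after its values were seen, was at 0.14 ± 0.17 (limma, adjusted p = 0.579), and has another feature of opposite sign.

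Each strain was also set against N2 by itself, both times against the same 2 N2 samples. In AIN-2::GFP worms 747 features (6.11%) were higher and 529 (4.33%) lower than in N2, or 10.4% in either direction. In promoter GFP worms the numbers were 1354 (11.1%) and 1046 (8.56%), or 19.6% in either direction. For the msp genes the medians were 2.82 in AIN-2::GFP and 3.46 in promoter GFP worms, and 13 were higher in each. Among col genes 24 were lower in AIN-2::GFP and 40 in promoter GFP worms, with medians of -0.55 and -0.45. The neuropeptides gave 19 and 25 lower, and muscle genes 6 and 6. Compared directly, the strains differed at 1 of 12222 features (0.00818%) in limma, with 474 at an unadjusted p under 0.05. With the pair block but the N2 samples kept apart, 284 features differed between the strains, among them 6 col genes (5 of them higher in AIN-2::GFP worms) and 0 msp genes.

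**Figure D5:**
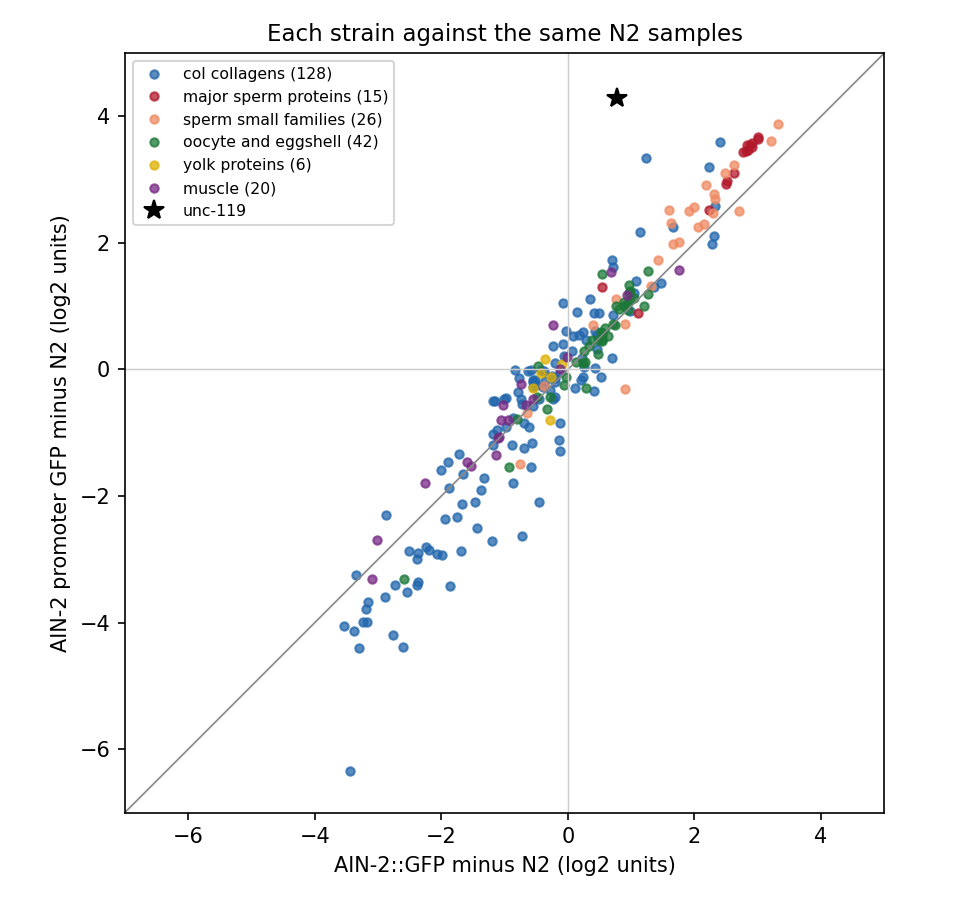
Each point is 1 gene: its difference from N2 in AIN-2::GFP worms (x, log2 units) and in promoter GFP worms (y, log2 units), coloured by list, with the line of equality. Both axes use the same N2 samples, so the points are tied by construction; most msp genes lie above the line, many of the falling col genes lie below it, and unc-119 stands apart.

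The feature that separated the strains was unc-119, a neuronal gene that is also used as a rescue marker in worm transgenesis. Its level was 0.383 and 0.485 in N2, 0.61, 0.797 and 0.737 in AIN-2::GFP and 9.73, 7.38 and 9.24 in promoter GFP worms. It was 4.29 above N2 in promoter GFP worms (limma, adjusted p = 0.00156) and 0.77 above N2 in AIN-2::GFP worms (limma, adjusted p = 0.0543). The labels do not give the marker used for either line. No feature is listed for ain-2 alone, so that gene was not analysed here. Its relative ain-1 was at 0.68 ± 0.20 (limma, adjusted p = 0.0576). The Argonautes that bind microRNAs and these proteins had differences of opposite sign. The level of alg-2 was 0.587 and 0.719 in N2 and between 1.21 and 1.85 in transgenic worms. It was 2.29-fold higher (limma, adjusted p = 0.0177, and 0.0646 with the pair block). The level of alg-1 was 0.22 and 0.24 in N2 and between 0.068 and 0.142 in transgenic worms. It was 2.31-fold lower (limma, adjusted p = 0.0284, and 0.0676 with the pair block). Both N2 samples but only 3 transgenic samples were above the background limit for alg-1, so its fold draws partly on values below background.

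Stress, immunity and detoxification genes were called about as often as other features or somewhat more. Of 19 heat shock genes, 3 were lower and 3 higher (15.8% each, background 9.23% and 13.0%). The small heat shock gene hsp-12.2 was at 16.1 and 12.8 in N2 and between 2.19 and 4.0 in transgenic worms, 5.29-fold lower (limma, adjusted p = 0.00745), and hsp-12.6 was 5.45-fold lower (limma, adjusted p = 0.00646). The mitochondrial chaperone hsp-60 was 2.48-fold higher (limma, adjusted p = 0.0217, and 0.0607 with the pair block). Of 114 C-type lectins, 22 were higher (19.3%) and 16 lower (14%); clec-1, at 11.2 and 14.1 in N2 and between 1.92 and 2.62 in transgenic worms, was 5.48-fold lower (limma, adjusted p = 0.0039). Among 89 cytochrome P450 and UDP transferase genes, 11 were higher (12.4%) and 7 lower (7.9%), both below the background shares, with a median of 0.23 that was -0.19 under scaling by the mean.

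Some of the largest single changes belonged to genes in none of the lists. The flavin monooxygenase fmo-2 was at 1.66 and 1.58 in N2 and between 0.0104 and 0.0562 in transgenic worms, at least 17.6-fold lower (limma, adjusted p = 0.0039). The lipase-like gene lipl-1 was at 2.34 and 2.50 in N2 and between 0.0572 and 0.127 in transgenic worms, a decrease of 4.86 ± 0.39 (limma, adjusted p = 0.00505). For btb-19 the N2 samples were far apart, at 12.3 and 0.204, but both exceeded the transgenic samples, which were between 0.0104 and 0.0233 and all below the background limit. It was at least 17.2-fold lower (limma, adjusted p = 0.0214, and 0.135 with the pair block). In the other direction, the saposin-like gene spp-17 went from 0.0714 and 0.222 in N2 to 2.90, 2.23 and 2.31 in AIN-2::GFP and 3.76, 1.90 and 3.27 in promoter GFP worms, a rise of 4.40 ± 0.39 (limma, adjusted p = 0.00541). The groups did not overlap for any of these 4 genes. The transcription factor gene grh-1, below background in both N2 samples, rose at least 3.89-fold (limma, adjusted p = 0.00673).

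The tested genes of the chemoreceptor list, which set the background limit, lay higher in transgenic samples. Most chemoreceptor genes are expressed in a few neurons and lie near background in whole-worm RNA. Of 457 tested (1193 on the array), 109 were higher (23.9%, background 13.0%) and 6 lower (1.3%, background 9.23%), with a median of 0.76. The low-signal filter used the mean over all 8 samples, 6 of them transgenic. Dim genes could thus pass it more easily when high in transgenic samples, and how far this raised the share was not tested. Of the 123 tested chemoreceptor genes above the limit in all 8 samples, 52 were higher and 4 lower. Of the 5278 tested features of any kind that were below the limit in at least 1 sample, 9.2% were higher and 9.8% lower. Of the 6944 above it in all 8, 15.9% were higher and 8.8% lower. Why the chemoreceptor list lay higher was not tested. Among the msp genes, 12 of the 13 that rose were above the background limit in all 8 samples, and among the small sperm families 8 of 16.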

How the data were processed

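Total RNA of mixed-stage worms was profiled on spotted DNA microarrays carrying 23232 features, of which 17461 are listed for a single gene; the 5771 others were not named. The deposited values are spot intensities that the authors mean normalized, per the series design text; multiplied back, 100% became whole numbers within 0.02, so each sample had been divided by its mean. Values below 0 show that background was subtracted; how, and with which scanner, was not given in the sources used here. Samples were grouped by their labels, all columns had a sample, and 0 pairs of samples were identical. How cultures were separated is not stated, so the tests read only the variation among these samples, which may be technical.

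The 8 samples were quantile normalized, floored at the 10th percentile of positive values (0.0104 sample means, 21.2% of values) and taken to log2. The floor lies below the background limits (0.0489 to 0.1233 sample means), so fitted differences of dim genes draw on values below background and can be too large or too small. For fmo-2 the fit gave 56.0-fold, against at least 17.6-fold from the limit. The 12222 features (11771 genes) with a mean above the 30th percentile were fitted with limma 3.58.1 in R 4.3.3, with strain and dye as terms and 4 residual degrees of freedom; the strains' mean was set against N2, and p-values were adjusted over all features by Benjamini-Hochberg. The threshold was 0.05. A feature was above background when it exceeded the median of 1276 chemoreceptor features by 2 median absolute deviations. Genes below that limit in all samples of a group are given as "at least N-fold", the bright group's mean against the dim group's mean of, per sample, the higher of the limit and the gene's own value. The brightest feature stands for a gene.

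Deviations from group means correlated at 0.575 to 0.773 for same-numbered transgenic samples of different strains, at -0.462 to -0.239 for others, and at -0.034 to 0.042 between N2 and transgenic samples of the same number. The numbers therefore pair transgenic samples but not N2, and the pair block (duplicateCorrelation, 0.546) was added after seeing the data.

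The 29 gene lists, the comparison itself and its tests were chosen with earlier results of these data known. Named genes are the 12 largest rises and falls within lists, the 6 (tissue and other lists, 3) smallest adjusted p per list or all of short lists, the 10 largest rises and falls of all, and every adult-linked, furrow and transgene-linked gene; others are said to be chosen after their values were seen. The fit was tested on simulated data. Tables used Python 3.11.15.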

Additional observations from a re-analysis of the deposited data

Results flagged for a closer look

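The gene unc-119 differed between the transgenic strains. Its difference was -3.51 on the log2 scale, AIN-2::GFP minus promoter GFP (limma, adjusted p = 0.0156), with all 3 promoter GFP samples above all 3 AIN-2::GFP samples. It was the only feature of 12222 called between the strains. With the replicate number as a fixed block, 0 features passed.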

How the results depend on the processing

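The calls against N2 rest on 2 N2 samples and move with them. No called gene chosen by the naming rule changed sign, but under mean scaling the medians of all features (0.16 to -0.17), early embryo (0.35 to -0.11), cuticlin (0.10 to -0.40) and cytochrome P450 and UDP transferase genes (0.23 to -0.19) did. Leaving out 1 sample gave 121 to 2378 calls for transgenic against N2 (2719 with all), 53 to 722 for AIN-2::GFP against N2, 105 to 2082 for promoter GFP against N2 and 0 to 0 between strains. It gave 5 to 38 col genes lower (median -0.54 to -0.43), 1 to 13 msp genes higher (median 2.93 to 3.29), 0 to 17 small sperm genes higher (median 1.84 to 2.30) and 0 to 0 yolk genes called (median -0.35 to -0.10). One fit over all 20 samples called 205, 52 and 171 features in the 3 comparisons with N2, 9 col genes lower, 3 msp and 4 small sperm genes higher, and a yolk median of -0.57. The pair block called 666, 196 and 952 features, 20 col genes lower, and 4 features between strains; with N2 apart it called 284 between strains. The replicate number as a fixed block with dye called 3601 features for transgenic against N2 and 0 between strains. Mean scaling called 775 for AIN-2::GFP and put the col median at -0.80; limma-trend called 1973. Yolk calls were 1 under cyclic loess (median -0.52), quantile normalization over 20 samples (median -0.57), limma-trend and the fixed block. The cause of these shifts was not tested. Dim genes limit what can be read: 21.2% of values lie at the floor.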

Other observations

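Some families outside the lists, looked at after their values were seen, also lay to 1 side. Of 43 tested ttr genes (transthyretin-related proteins), 17 were lower and 0 higher in transgenic worms, with a median of -0.83, and 6 were lower with the pair block. The background was 9.23% lower and 13.0% higher (2.63% and 2.81% with the pair block). Of 47 fbxb genes, which encode F-box proteins, 14 were higher and 1 lower, with a median of 0.66, but 2 were higher with the pair block. Of 9 dod genes, named as targets downstream of DAF-16, 6 were higher and 2 lower, and 5 and 2 with the pair block. Of 8 phat genes, 4 were lower and 0 higher, and 2 with the pair block. Of 9 nspc genes, 5 were lower and 1 higher, and 2 were lower with the pair block. Of 10 bus genes, several of which affect the surface of the cuticle, 3 were lower and 0 higher, and 0 with the pair block.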
